A study of Homo sapiens with 4 samples.

Results

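The metallothionein genes MT1A, MT1E, MT1F, MT1G, MT1H, MT1X and MT2A were examined together with MTF1, the transcription factor that switches them on, and SLC30A1, a zinc exporter under the same control. Every array probe whose accession named one of these 9 genes was taken, other than control spots, which gave 11 of the 34127 probes on the array and 9 of the 19062 genes named there. On 4 Agilent human V2 arrays RNA from SB cells competed with RNA from SCt cells, so every array gave its own ratio of SB over SCt. SB and SCt are stable clones of SAS, an established line of tongue squamous cell carcinoma. SB cells carry a lentiviral pLKO.1 vector with shRNA-B against AEG-1, which is also called LYRIC and listed as MTDH. For SCt cells the sample labels give the pLKO.1 vector, and the study's methods give a scrambled shRNA. Both were selected with puromycin at 2 μg/ml for 14 days, and each labelling took 15 μg of RNA. The comparison asks which transcripts differ once AEG-1 is knocked down. It concerns 1 shRNA in 1 cell line, and no array was dye-swapped: SB RNA carried the red dye and SCt RNA the green dye on every array. A preference of a probe for one dye therefore cannot be told apart from the effect of the knockdown. The arrays are described as biological replicates, but whether they came from separate cultures could not be established, and in the other case their spread is technical.

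Metallothioneins are small proteins, rich in cysteine, that hold zinc, copper and cadmium in clusters of metal and thiol. They buffer free zinc and take up toxic metals and oxidants. When free zinc rises, it binds the zinc fingers of MTF1, which then occupies short metal response elements in the promoters of metallothionein genes and of SLC30A1. The SLC30A1 protein in turn carries zinc out through the plasma membrane. MT2A and the MT1 genes lie side by side on chromosome 16 and arose by duplication, so their messages are nearly alike. A probe for one of them may catch the messages of others, and the probes are therefore described one by one.

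The promoters of MT2A, MT1X, MT1H and SLC30A1 are shown because they carry the elements through which MTF1 would act on these genes. They are the 250 bases before the gene start in RefSeq (GRCh38.p14), at chr16:56608334-56608583 on the plus strand for MT2A, chr16:56682220-56682469 on the plus strand for MT1X, chr16:56669564-56669813 on the plus strand for MT1H and chr1:211579162-211579411 on the minus strand for SLC30A1. The sequences run 5′ to 3′ along the gene, and capitals mark each match to the core of the metal response element, TGCACNC or TGCGCNC, on either strand.
MT2A: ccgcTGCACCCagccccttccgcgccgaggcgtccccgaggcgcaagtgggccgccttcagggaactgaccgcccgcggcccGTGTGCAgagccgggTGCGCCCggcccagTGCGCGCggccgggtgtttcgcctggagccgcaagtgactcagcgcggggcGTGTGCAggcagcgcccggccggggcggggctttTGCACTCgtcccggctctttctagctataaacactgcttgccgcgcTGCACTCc
MT1X: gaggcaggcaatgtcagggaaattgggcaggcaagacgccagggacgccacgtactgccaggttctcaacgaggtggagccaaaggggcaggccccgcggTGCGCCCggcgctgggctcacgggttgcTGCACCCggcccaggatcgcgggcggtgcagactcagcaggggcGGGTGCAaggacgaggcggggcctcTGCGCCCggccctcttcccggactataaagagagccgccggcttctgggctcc
MT1H: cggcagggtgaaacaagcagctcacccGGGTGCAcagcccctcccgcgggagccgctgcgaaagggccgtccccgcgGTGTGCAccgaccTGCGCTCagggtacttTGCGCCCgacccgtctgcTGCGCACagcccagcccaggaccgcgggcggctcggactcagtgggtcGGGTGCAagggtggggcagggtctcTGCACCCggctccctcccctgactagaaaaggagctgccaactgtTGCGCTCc
SLC30A1: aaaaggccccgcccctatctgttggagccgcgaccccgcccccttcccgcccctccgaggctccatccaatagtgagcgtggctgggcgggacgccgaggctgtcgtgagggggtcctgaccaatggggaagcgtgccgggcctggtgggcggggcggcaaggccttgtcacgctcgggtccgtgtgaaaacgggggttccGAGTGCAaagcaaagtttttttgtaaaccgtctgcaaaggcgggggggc

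The core was found 8 times before MT1H, 7 times before MT2A, 4 times before MT1X and 1 time before SLC30A1, with no match overlapping another. The window of MTF1 itself, chr1:37859593-37859842 on the minus strand, held 0. Of the 35116 promoter windows of the same length in the table, 24.8% held at least 1 match, 0.37% at least 4, 0.0313% at least 7 and 0.0171% at least 8. Windows were present for 5 of the 9 genes. Among the other metallothioneins, the windows of MT1B and MT4 held 3 matches each, a number that 1.58% of all windows reached. These are matches of letters and do not show which of them are bound in SAS cells.

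AEG-1 itself was lower in SB cells on every array, with log2 ratios of SB over SCt of −3.18, −3.01, −3.12 and −3.41, so the arrays ran in the direction of their labels. Between 84.7% and 90.3% of spots per array and channel were well above background by the scanner software's own test, 1.89% to 2.71% were set aside as outlier spots, and 0 were saturated. The median intensity was 655 to 875 in the SB channel and 362 to 588.5 in the SCt channel. Ratios were therefore set level by loess, which fits the difference between dyes along the range of intensities and subtracts it. All 8 epithelial marker genes on the array passed the software's test in each channel of the 4 arrays. The same held for 3 of 6 fibroblast markers, 4 of 4 leukocyte markers and 3 of 3 endothelial markers, so detection alone did not tell these cell types apart. COL3A1 and LUM passed the software's test on no array. Of these 21 markers 18 could be tested and limma called 0, beside 3.7% of all tested probes. With so few markers, that count is close to what the share alone would give.

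Of the 11 probes, 9 were well above background and were tested, and these 9 read 8 of the 9 genes. The probe for MT1G (A_33_P3233645) was not well above background in either channel on any array, so no fold is given for it. A second probe for MT1H (A_33_P3368313) was well above background on 2 arrays in each channel and was left out as well.

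No difference between SB and SCt cells passed the test in this family. With limma and Benjamini-Hochberg adjustment over all 28505 tested probes, 0 of the 9 probes had an adjusted p under 0.05, whereas 3.7% of all tested probes did (1.32% higher and 2.38% lower in SB cells). At an unadjusted p under 0.05 there were 2 of the 9, those of MT2A and MT1E, against 18.7% of all probes. By the methods' t-test there were 0 after adjustment and 1 before it. With so few probes, a count of 0 is close to what the background share alone would give. The 2 probes that came nearest lay on opposite sides of 0, MT2A above and MT1E below.

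MT2A, the most widely expressed metallothionein of human tissues, was higher in SB cells on every array. Its probe (A_23_P106844) gave log2 ratios of SB over SCt of 0.16, 0.32, 0.29 and 0.12 on arrays 1 to 4. The mean was 0.23 ± 0.10 (SD, n = 4 arrays), which is 1.17-fold, with a 95% interval of 0.10 to 0.35 and an adjusted p of 0.0597 from limma. All 4 arrays lay above 0, and 26.8% of all probes likewise kept one sign on all 4 arrays.

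The size of the MT2A difference depended on how the dyes were set level. Its spots gave intensities of 149651, 171287, 167842 and 216910 in the SB channel and 50623.5, 69897.1, 66874.7 and 105287 in the SCt channel, before the dyes were set level. These are spot brightnesses and not levels of mRNA, and they lie near the top of the scale, with 26 tested probes (0.0912%) brighter. All 26 had a log2 ratio above 0, with a median of 0.36, and 18 of them were called higher in SB cells, against 1.32% of all probes. The part that intensity played in the MT2A value was not tested. With the scanner software's own ratios the mean was 0.02 and the adjusted p 0.877, and with each array centred on its median it was 0.68 with an adjusted p of 0.000147. Without array 4 it was 0.26, and the adjusted p of 0.0180 passed the threshold.

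MT1E, an inducible isoform of the same cluster, lay below 0 on every array, but unevenly. The log2 ratios of its probe (A_23_P206724) were −0.08, −0.14, −0.09 and −0.62. Arrays 1 to 3 lay close together and array 4 stood far below them. The mean was −0.23 ± 0.26 (SD, n = 4 arrays), with a 95% interval of −0.42 to −0.05 and an adjusted p of 0.164 from limma. Without array 4 the mean was −0.10, and with median centring in place of loess it was 0.02. On arrays 3 and 4 its intensity before normalization was 27751.6 and 27633.6 in the SB channel, and 17270 and 24839.2 in the SCt channel. The median over all spots was lower on array 4 in both channels, at 875 and 655 for SB and 588.5 and 400.75 for SCt. From array 3 to array 4 the SCt intensity of the probe thus rose and its SB intensity hardly changed, while both medians fell. Which channel the low ratio of array 4 came from was not tested.

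On each array MT2A lay above MT1E, the lowest of the metallothionein probes. The differences between their log2 ratios were 0.24, 0.46, 0.39 and 0.74, with a mean of 0.46 ± 0.21 (SD, n = 4 arrays). An exact two-sided sign-flip permutation test gave the smallest p that 4 arrays allow, which is above 0.05. The pair was chosen as the highest and the lowest probe, so the sign of its mean was set by the choice. With the scanner software's ratios the mean difference was 0.24.

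**Figure D1:**
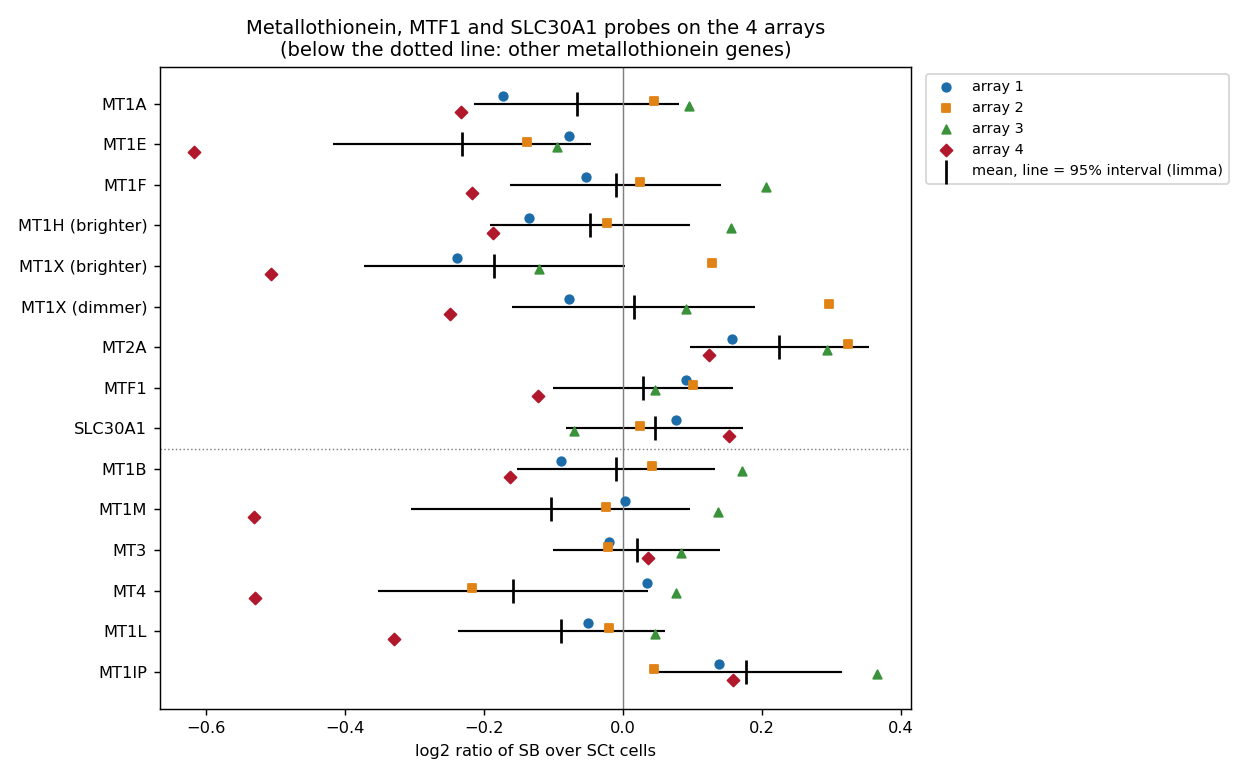
Log2 ratio of SB over SCt cells (horizontal axis) for each tested probe of the metallothionein genes, MTF1 and SLC30A1, and of the other metallothionein genes below the dotted line; symbols are the 4 arrays, the short bar is the mean and the line the 95% interval from limma. Array 4 lies lowest for 11 of the 13 metallothionein probes, MT2A lies above 0 on all 4 arrays and MT1E below 0 on all 4.

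MT1X was read by a pair of probes that did not give the same ratio. The brighter of them (A_33_P3350056) had log2 ratios of −0.24, 0.13, −0.12 and −0.51, a mean of −0.18 ± 0.26 (SD, n = 4 arrays) and an adjusted p of 0.275 from limma. The dimmer (A_33_P3236868) had −0.08, 0.30, 0.09 and −0.25, a mean of 0.02 ± 0.23 and an adjusted p of 0.942. Both ran highest on array 2 and lowest on array 4, and the dimmer one lay above the brighter one every time. The distance between them was 0.16, 0.17, 0.21 and 0.26, with a mean of 0.20 ± 0.04 (SD, n = 4 arrays), and the exact sign-flip test was again at its smallest possible p. That distance varied less between arrays than either probe did. With median centring in place of loess the means lay closer together, at 0.06 for the brighter probe and 0.14 for the dimmer. Which transcripts each probe catches was not tested.

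MT1A, MT1F and MT1H, further MT1 isoforms of the same cluster, followed one another from array to array. For MT1A (A_23_P54840) the log2 ratios were −0.17, 0.05, 0.09 and −0.23, with a mean of −0.07 ± 0.16 (SD, n = 4 arrays) and a 95% interval of −0.21 to 0.08. For MT1F (A_23_P15174) they were −0.05, 0.02, 0.21 and −0.22, with a mean of −0.01 ± 0.18 and an interval of −0.16 to 0.14. For the brighter MT1H probe (A_33_P3315314) they were −0.13, −0.02, 0.16 and −0.19, with a mean of −0.05 ± 0.15 and an interval of −0.19 to 0.10. In each of the 3 genes array 3 was highest and array 4 lowest, and values lay on both sides of 0. The adjusted p-values from limma were 0.649, 0.960 and 0.757. With median centring in place of loess, MT1A and MT1H turned to 0.21 each.

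MTF1, the metal sensor, differed little. Its probe (A_33_P3294237) gave log2 ratios of 0.09, 0.10, 0.05 and −0.12, with a mean of 0.03 ± 0.10 (SD, n = 4 arrays), a 95% interval of −0.10 to 0.16 and an adjusted p of 0.842 from limma. SLC30A1, the zinc exporter that MTF1 also controls, gave 0.08, 0.02, −0.07 and 0.15 (A_23_P23815). Its mean was 0.05 ± 0.09, with an interval of −0.08 to 0.17 and an adjusted p of 0.731. For both genes the arrays lay on either side of 0. On array 4 SLC30A1 was at its highest, whereas MTF1 and the tested probes of MT1A, MT1E, MT1F, MT1H and MT1X were at their lowest.

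The other metallothionein genes on the array, a list of 7 with 1 probe each, were tested in the same way. Of these, 6 passed the filter and limma called 0, beside 3.7% of all probes. At an unadjusted p under 0.05 there was 1, beside 18.7% of all probes, and the methods' t-test called 0 after adjustment. Neither count stands apart from its background share. MT1DP, a pseudogene, did not stand above background on any array. MT3, known mainly from the brain, had a mean log2 ratio of 0.02 ± 0.05 (SD, n = 4 arrays), and MT4, known from stratified squamous epithelium, had −0.16 ± 0.28. MT1B and MT1M, further MT1 isoforms, had −0.01 ± 0.15 and −0.10 ± 0.29. MT1L, which is listed among the metallothionein pseudogenes, had −0.09 ± 0.17. The pseudogene MT1IP had the highest mean of the list: its log2 ratios were 0.14, 0.05, 0.37 and 0.16, averaging 0.18 ± 0.14, and limma gave an adjusted p of 0.155. Its probe lay above 0 on all 4 arrays, and those of the other 5 tested genes did not keep one sign.

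Across the family, most ratios moved together from array to array. Of the 13 tested metallothionein probes, array 4 gave the lowest ratio for 11, whereas it was the lowest array for 26.7% of all probes. The exceptions were MT3 and MT1IP, both lowest on array 2. Array 3 gave the highest ratio for 9 of the 13, against 29.3% of all probes. The family's median log2 ratio was −0.05, 0.02, 0.09 and −0.23 on arrays 1 to 4. The median over all probes stayed between 0.00077 and 0.016, but loess sets it near 0 on every array. On array 4 all but 3 of the 13 probes lay below 0, namely MT2A, MT3 and MT1IP. Before normalization, the SCt intensity was highest on array 4 for 12 of the 13 probes and the SB intensity for 8. The median intensity over all spots was highest on array 3, at 875 for SB and 588.5 for SCt. The same count over all probes was not made, so these counts have no background share. Because near-identical messages can reach several of these probes, the 13 are not independent measurements, and this pattern is a description.

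**Figure D2:**
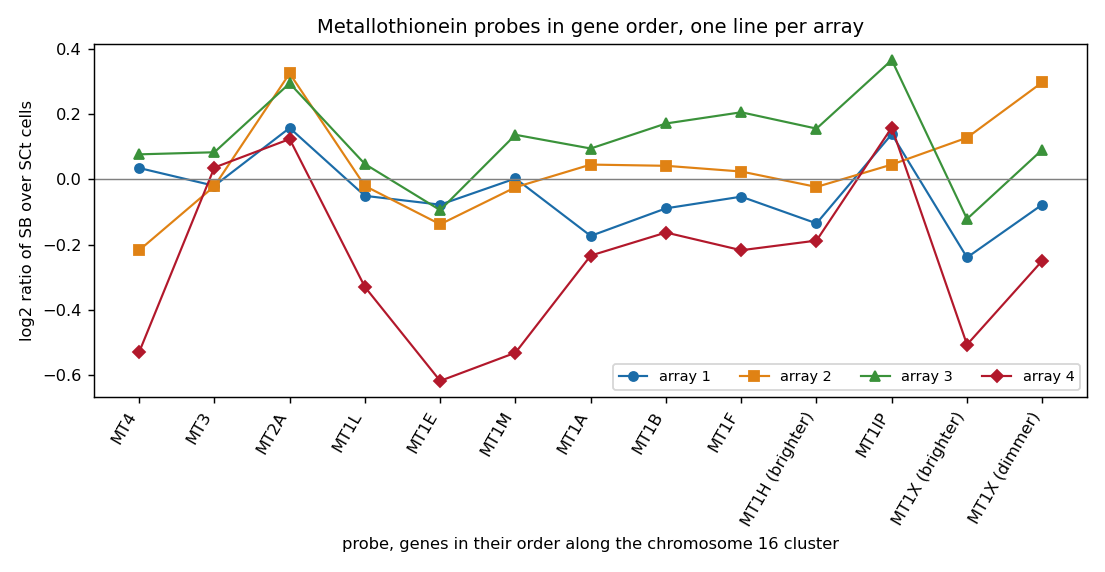
Log2 ratio of SB over SCt cells (vertical axis) for the 13 tested metallothionein probes, placed in the order of their genes along the chromosome 16 cluster in RefSeq, with one line per array. MT2A stands above its neighbours MT3 and MT1L on all 4 arrays, and array 4 dips furthest at MT4, MT1E, MT1M and MT1X, reaching −0.62 at MT1E.

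The spread between arrays was wide for most of these probes. The SD between arrays was above the all-probe median of 0.113 for 11 of the 13 metallothionein probes. For MT2A, at 0.10, it was below. Without array 4 the SD was above the all-probe median, then 0.104, for 8 of the 13. Whether this spread accounts for the absence of calls was not tested. Means lay above 0 for 4 and below 0 for 9 with all arrays, and above 0 for 7 and below for 6 without array 4; with median centring in place of loess, MT4 was the one metallothionein below 0. The median of the means was −0.05 with array 4 and 0.01 without it. Among all probes called by limma, the smallest difference was 0.22 and the median 0.31 on the log2 scale. The 95% intervals of the 13 probes reached from −0.42 to 0.35. A change of the size seen for AEG-1 lies outside all of them, and smaller differences inside a probe's interval are not excluded for it. The intervals hold the spread between arrays under the main processing, and not the effect of the processing. MT2A left its own interval of 0.10 to 0.35, at 0.02 with the software's ratios and 0.68 with median centring. Differences outside an interval are thus not all excluded.

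**Figure D3:**
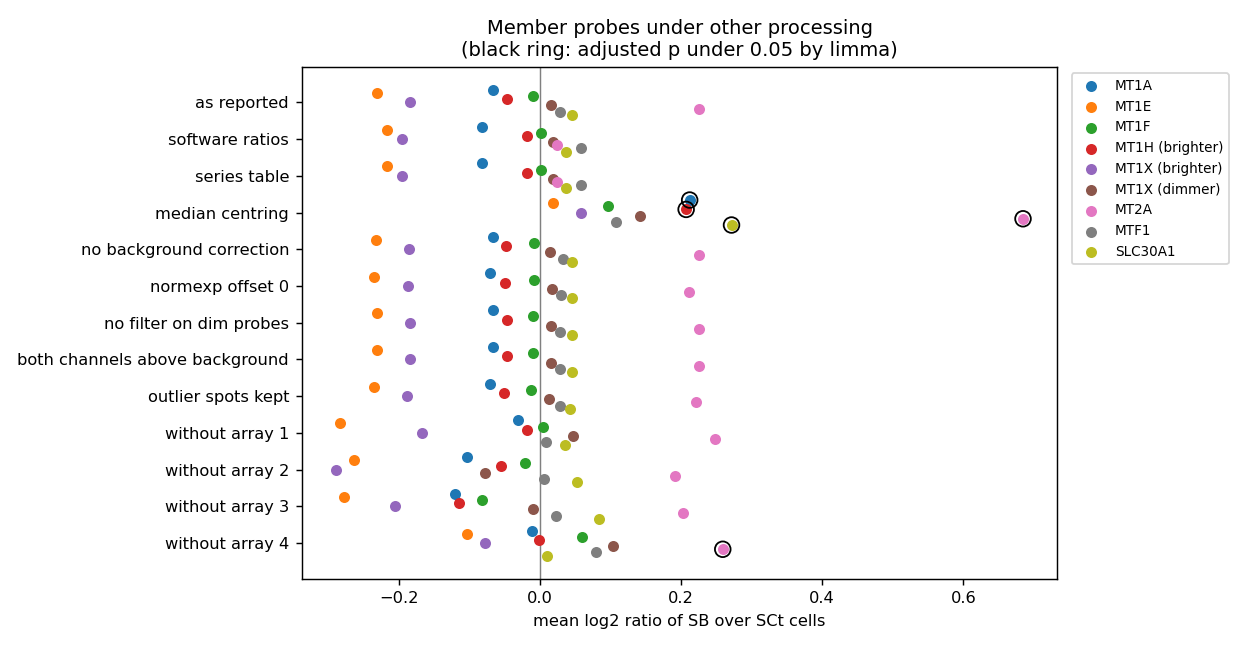
Mean log2 ratio of SB over SCt cells (horizontal axis) of the 9 tested probes of the metallothionein genes, MTF1 and SLC30A1 under each way of processing the arrays (rows); black rings mark an adjusted p under 0.05 from limma. Rings appear with median centring, for MT2A, MT1A, MT1H and SLC30A1, and without array 4, for MT2A at 0.26. Of all tested probes, 8937 of 28505 were called with median centring, and 1991 of 28499 without array 4.

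The wider machinery of zinc and copper was examined through lists of genes, each gene read by its brightest probe. Of the 23484 genes, 295 were called higher and 530 lower by limma, 3.51% in all, and the median log2 ratio was 0.01. Most transporters of the SLC30 family other than SLC30A1 move zinc out of the cytosol, into vesicles or out of the cell. Of the 9 genes of this family listed, 6 were tested and 0 called, with a median of 0.02. Their means ran from −0.18 for SLC30A5 to 0.20 for SLC30A6, which carry zinc into the secretory pathway. Zinc importers of the SLC39 family bring zinc into the cytosol, and all 14 were tested, 0 called, with a median of −0.02. The lowest was SLC39A14 at −0.18 and the highest SLC39A9 at 0.18. Another probe of SLC39A14 gave a mean of 0.03, and the mean of SLC39A9 was 0.05 without array 4.

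Copper handling genes, whose metal metallothioneins also bind, behaved alike. All 16 were tested and 0 called, beside 3.51% of all genes, with a median of −0.01. They ran from −0.11 for COMMD1, a regulator of copper export, to 0.20 for CCS, the chaperone that loads copper onto superoxide dismutase. CCS rested largely on array 3, with log2 ratios of −0.16, 0.04, 0.70 and 0.22. ATP7A, a copper-exporting ATPase, depended on the probe: its brightest gave a mean of 0.01 with an adjusted p of 0.969 from limma. Another of its probes gave −0.25 with an adjusted p of 0.0494. That probe was singled out after its value was seen.

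Glucocorticoids are the other well known inducers of MT2A, and 10 of 11 genes that they induce were tested. The 1 call was SGK1, a kinase that governs ion transport, which was lower in SB cells. Of all genes, 3.51% were called, and with so few genes 1 call does not stand apart from that share. Its log2 ratios were −0.51, −0.32, −0.64 and −0.08, with a mean of −0.39 ± 0.24 (SD, n = 4 arrays) and an adjusted p of 0.0228 from limma. It lay below 0 on all arrays but near 0 on array 4. The list's median was −0.09, and its highest gene was ZBTB16, a zinc finger repressor, at 0.16. The mean of SGK1 was about the same with the software's ratios (−0.39) but the adjusted p was 0.0775. It ran from −0.41 to −0.31 without array 1, 2 or 3, with adjusted p-values of 0.0871, 0.0604 and 0.194 from limma. The call was also lost with the series table (0.0795), normexp without an offset (0.0520) and the methods' t-test (0.361), and with median centring, where the mean was −0.20 (0.0633). Without array 4 the call was kept, at −0.49 with an adjusted p of 9.99e-06 from limma. It was also kept without background correction, under both changes of the filter, with outlier spots kept, and with trend and robust options in eBayes. Over the 4 lists, 1 of the 46 tested genes was called, which does not stand apart from the 3.51% of all genes.

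**Figure D4:**
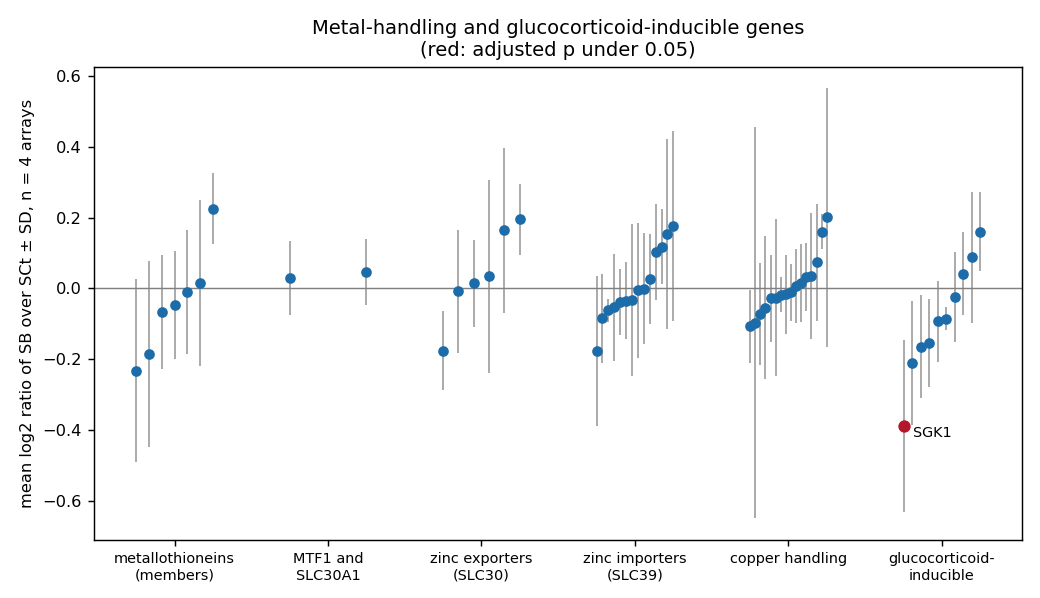
Mean log2 ratio of SB over SCt cells (vertical axis; bars are the SD over 4 arrays) for the metallothioneins, MTF1 with SLC30A1, and the genes of the 4 lists, sorted within each group; red marks an adjusted p under 0.05 from limma. SGK1 at −0.39 is the 1 red point, and the other genes scatter on both sides of 0.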

How the data were processed

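For each of the 4 arrays, the authors deposited a Feature Extraction file (Agilent Feature Extraction 10.5.1.1, per the submitters' processing notes), with red (SB) and green (SCt) median intensities per spot on a linear scale, not normalized, and the scanner software's own log10 ratio. The authors also deposited a series table of log2 ratios, which equalled the software's processed ratio within 0.001 for 97.6% to 97.9% of probes per array.

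R 4.3.3 and limma 3.58.1 were used. Background was corrected by normexp (offset 50, which makes the ratios of weak spots smaller) on all 44495 spots. The 1377 control spots and outlier spots were removed, ratios were normalized by loess, and spots of a probe were averaged. A probe was kept if one of its channels passed the software's background test on each of the 4 arrays and it had at least 2 values (28505 of 34127). The mean log2 ratio was tested against 0 with lmFit and eBayes, with Benjamini-Hochberg adjustment over these probes and a threshold of 0.05. The steps were tested on simulated data. The number of arrays limits the precision. All arrays lay on 1 slide, so no slide block was used.

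Accessions gave the gene names, through RefSeq (GRCh38.p14). Of 34127 probes 24826 matched and 9301 did not. The genes named are the members, every other metallothionein gene with a probe, MTDH, the called or else the extreme genes of each list, and the 5 genes with the most similar array profile. Members and lists were chosen with earlier results of these data known. Alternative settings took the ratio from the software or from the series table, centred each array on its median, skipped the background correction or the normexp offset, dropped the filter on dim probes or asked it of both channels, kept outlier spots, used trend and robust options in eBayes, replaced limma by the methods' t-test, left out each array in turn and, for the lists, averaged a gene's probes.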

Additional observations from a re-analysis of the deposited data

Results flagged for a closer look

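The MT1E probe had a sample far from the others: the gap between array 4 (−0.62) and the next lowest array (−0.14) took up 0.889 of the whole range of its 4 log2 ratios, above Dixon's critical value for 4 samples. Of 23 probes checked this was the 1 that passed, and chance flags about 5% of groups.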

How the results depend on the processing

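Without each array in turn, the number of all probes called by limma ran from 204 (without array 3) to 1991 (without array 4), against 1055 with all arrays. The members called ran from 0 to 1, the call being MT2A without array 4, and those of the lists from 0 to 2, against 1 with all arrays. The difference between MT2A and MT1E ran from 0.36 to 0.53 over the same 4 settings, and was 0.24 with the software's ratios in place of 0.46. With median centring in place of loess, 8937 of the 28505 tested probes were called (5599 higher and 3338 lower, against 376 and 679). Among them were 4 of the 9 member probes, 2 of the 6 other metallothioneins (MT3 and MT1IP) and 13 of the 46 list genes. With so large a share of all probes called, these counts are not read as a result about the family or the lists. The median of all probes was then 0.06 and that of the 15 tested probes of the metallothioneins, MTF1 and SLC30A1 0.16, in place of 0.01 and −0.01. The values of MT1A (0.21), MT1H (0.21), MT1B (0.16) and MT1L (0.19) changed sign there by more than 1 SD between arrays, and those of MT1E (0.02), MT1F (0.10), the brighter MT1X probe (0.06) and MT1M (0.01) changed sign by less. Those of MT1A and MT1H passed the threshold (adjusted p of 0.0480 and 0.0489). SLC30A1 passed it too, at 0.27. The methods' t-test called 0 of all probes after adjustment, and 3925 at an unadjusted p under 0.05. The lists had 0 calls with the software's ratios, the series table, normexp without an offset and the methods' t-test. The cause of these changes was not tested. Under the other alternatives the number of members called stayed at 0. No paired analysis was possible because the arrays form a single group of ratios, each of which already pairs SB with SCt RNA. With 4 arrays, the smallest difference called for any probe was 0.22 on the log2 scale.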

Other observations

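The genes whose array profile was most like that of the metallothioneins were looked up among 16357 other named genes. The profile was the mean log2 ratio of the 6 tested metallothionein genes, each by its brightest probe, and was −0.09, 0.06, 0.09 and −0.27 on arrays 1 to 4. Likeness was the root-mean-square difference from it over the 4 arrays. ARG2, a mitochondrial arginase, came nearest at 0.0320, followed by ASTN1 (0.0325), LINC00626 (0.0361), TRIM55 (0.0371) and PLCE1, a phospholipase C (0.0389). The nearest metallothionein, MT1A, lay at 0.0482, with 12 other genes nearer than that. The farthest, MT2A, lay at 0.287, within which 85.9% of all genes fell. The 12 genes nearer than MT1A are 0.0734% of those compared. MT1A is itself 1 of the 6 genes averaged into the profile, which makes its own distance smaller. A profile over 4 arrays holds few values, so this likeness is a description.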
